A study of Mus musculus with 6 samples.

Results

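The 4 Id genes (Id1, Id2, Id3 and Id4) and 4 Notch target genes of the Hes and Hey family (Hes1, Hey1, Hey2 and Heyl) were followed in cultured dermal fibroblasts of the mouse, the cells that make skin matrix, during a short exposure to the cytokine interleukin-1 (IL-1). Every non-control probe carrying one of these 8 names was taken, which gave 12 of the 41174 probes on the array. All 12 were among the 30583 probes kept for testing. Id1, Id2, Id4 and Heyl had 2 probes each and the others had 1.

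The fibroblasts came from C57BL/6 mice and were grown in DMEM with serum. Treated cells received IL-1 at 20 ng/ml for 1, 2 or 4 h, and the control was the untreated culture (0 h). Each time point was hybridised against untreated RNA on 2 two-colour arrays with exchanged dyes, Cy5 holding the treated RNA on the first and Cy3 on the second, so the 6 arrays amount to 1 sample per time point. The form of IL-1, the number of animals and the passage of the cells were not given in the sources used here. Separate cultures for the time points are not stated, so p-values measure only the spread between these samples. That spread may be technical, and for an average over times it also holds any change with time.

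Id proteins are helix-loop-helix proteins that lack a DNA-binding region. They pair with E proteins and other basic helix-loop-helix (bHLH) factors and keep them off DNA, and their genes are classic targets of bone morphogenetic protein (BMP) signalling through SMAD proteins. Hes and Hey proteins are bHLH repressors that are switched on by Notch receptors through the DNA-binding protein RBPJ. Hes proteins recruit corepressors of the TLE family.

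Id4 was the gene of this group with the largest response. The signal of its brighter probe was 0.469 of untreated after 1 h, 0.52 after 2 h and 0.838 after 4 h. Hes1 and Hey2 also fell on average over the time course and Id3 rose slightly. Id2 was lowest at 2 h, and Id1 was above untreated at 1 and 4 h and below it at 2 h. Id1, Id2, Hey1 and Heyl did not pass the test of the average over the time course. Id3, Id4 and Hes1 passed it, but not under every processing or choice of samples tried. The signals of Hes1 and Hey2 were dim.

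Log2 ratios of the treated to the untreated signal are given for the array with treated RNA in Cy5 first and in Cy3 second. The ± after the mean of a pair gives how far each orientation lay from it, a technical error. Over all kept probes this distance had a median of 0.062 and a 95th percentile of 0.197. The mean response is the average over 1, 2 and 4 h (n = 3 time points) with its standard error (SE), tested against 0 with limma at a Benjamini-Hochberg adjusted p under 0.05 over all kept probes. With 1 sample per time point no test was possible at a single time, where probes were counted by size in both orientations.

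**Figure D1:**
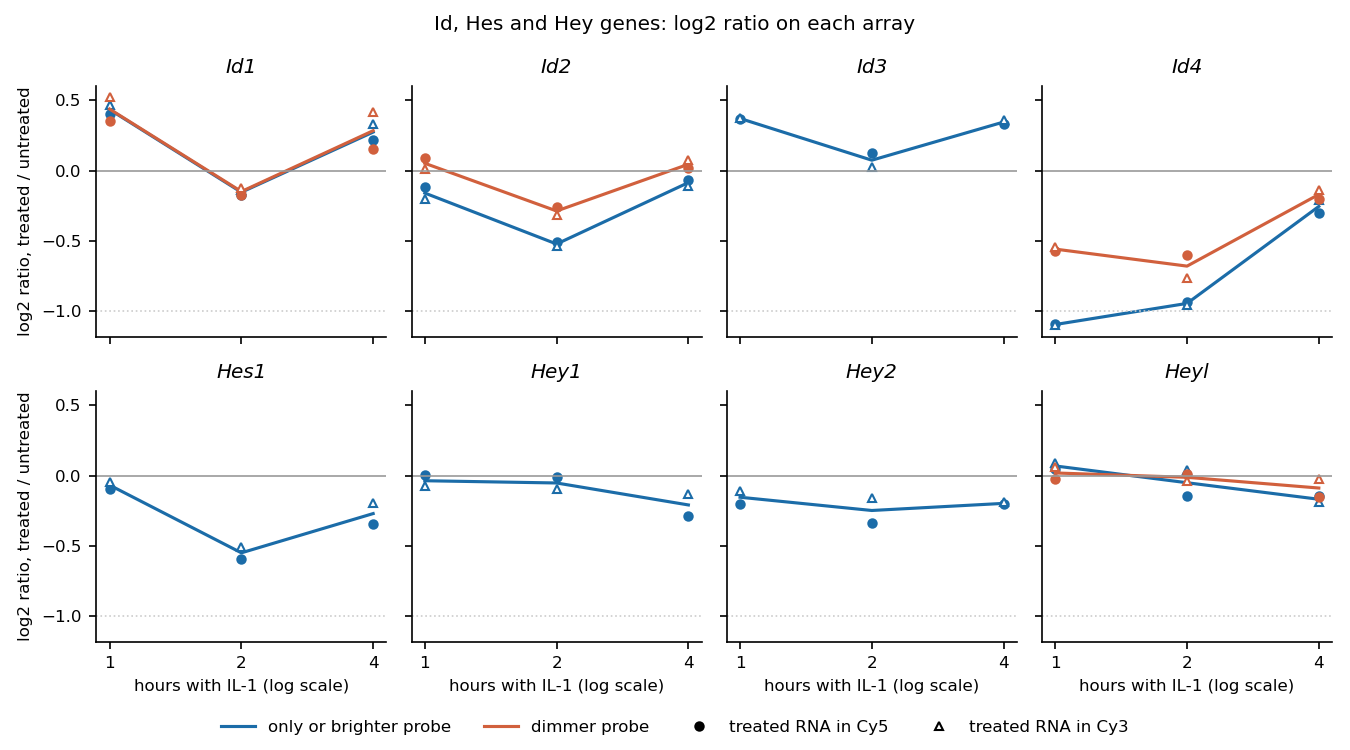
Log2 ratio of treated to untreated signal (vertical axis) against hours with IL-1 (horizontal axis, log scale) for the 8 genes. Filled circles are arrays with treated RNA in Cy5, open triangles those with treated RNA in Cy3, and lines join the means of both, in blue for the only or brighter probe and in orange for the dimmer one. Id4 reached -1.09 at 1 h, while Id1, Id2, Id3 and Hes1 dipped at 2 h and the Hey genes stayed close to 0.

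The member probes past the sizes used here were all on the lower side. At 1 h, 1 member probe (Id4) was at or below -1 in both orientations, against 0.00654% of all kept probes, a share that amounts to 2 probes. At or below -0.5 at 1 h were 2 member probes, both of Id4, against 0.049% of all. At 2 h, 4 member probes of 3 genes (Id4, Id2 and Hes1) were at or below -0.5, against 0.0948% of all. At 4 h there was no such member probe, with 0.0916% of all. No member probe reached 0.5 upward in both orientations at 1 h (0.5% of all), 2 h (0.52%) or 4 h (0.435%). Short of that size, Id1 (0.44 and 0.43 on its probes) and Id3 (0.37) ranked high at 1 h, with 0.742%, 0.765% and 0.978% of all kept probes above them. At 4 h the probes above them made up 1.88%, 2.04% and 1.17%. The median over the 12 member probes was -0.0094 at 1 h, -0.20 at 2 h and -0.13 at 4 h, and over all kept probes it was 0.0013, 0.00081 and 0.0023.

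In the mean response, 4 of 12 member probes, from 3 genes, were lower, against 11.3% of all kept probes. In the same test 1 member probe was higher, against 10.5% of all. At an unadjusted p under 0.05, 7 of the 12 passed, against 34.9% of all kept probes. The median mean response was -0.082 over the member probes and 0.0021 over all.

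Promoter sequence was matched for 4 of the 8 genes (Id2, Id3, Id4 and Hey2) in the RefSeq table of GRCm38.p6. The 250 bases before the annotated start are shown for Id4 and Id2, which were low at 2 h, and for Id3, which rose in the mean response, each read 5′ to 3′ on the strand of its gene. Capitals mark GGCGCC, a GC-rich element known to bind BMP-activated SMAD proteins. The windows are chr13:48260866-48261115 on the plus strand for Id4, chr12:25096093-25096342 on the minus strand for Id2 and chr4:136143572-136143821 on the plus strand for Id3.
Id4: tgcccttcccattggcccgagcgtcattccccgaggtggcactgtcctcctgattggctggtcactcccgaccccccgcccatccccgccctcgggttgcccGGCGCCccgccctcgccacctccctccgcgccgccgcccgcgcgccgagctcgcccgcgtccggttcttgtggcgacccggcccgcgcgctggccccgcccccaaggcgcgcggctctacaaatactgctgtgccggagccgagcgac
Id2: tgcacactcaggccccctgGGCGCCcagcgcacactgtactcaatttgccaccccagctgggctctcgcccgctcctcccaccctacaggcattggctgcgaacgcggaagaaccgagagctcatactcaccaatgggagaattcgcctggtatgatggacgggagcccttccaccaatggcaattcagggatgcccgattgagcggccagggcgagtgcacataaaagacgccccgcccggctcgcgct
Id3: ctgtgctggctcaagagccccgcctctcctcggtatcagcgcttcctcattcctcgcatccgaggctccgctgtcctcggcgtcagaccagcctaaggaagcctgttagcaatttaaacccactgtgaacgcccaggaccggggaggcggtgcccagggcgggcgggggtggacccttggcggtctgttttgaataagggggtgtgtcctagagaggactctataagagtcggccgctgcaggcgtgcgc

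GGCGCC, which is its own reverse complement, was found at bases -148 to -143 from the Id4 start and at -231 to -226 from that of Id2. It was not in the Id3 window or in that of Hey2 (chr10:30842784-30843033, minus strand), and 9.59% of all 32851 promoter windows of this length held it. The RBPJ core TGGGAA, searched on both strands, was in the Id4 window at -245 to -240 and the Hey2 window at -207 to -202, and in 21.6% of all windows. The CRE half-site TGACG, bound by CREB, lay at -229 to -225 in Id4 and at -170 to -166 in Id3, with 17.8% of all windows holding it. The E-box CANNTG, the site class of the bHLH factors that Id proteins hold back, matched once in Id2 and once in Hey2, against 66.2% of all windows. The N-box CACNAG, which Hes proteins bind, matched once in Id4, against 36.7% of all. The NF-kB motif was in none of the 4 windows and in 3.9% of all. These matches describe letters only, and binding was not measured.

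Id4 (chr13:48261116-48266028, gene span in GRCm38.p6) fell. Its brighter probe gave -1.09 and -1.10 at 1 h, -0.93 and -0.96 at 2 h, then -0.30 and -0.21 at 4 h. The pair means were -1.09 ± 0.0052, -0.94 ± 0.012 and -0.25 ± 0.046. All 6 arrays were below 0, and the 4 h pair did not overlap with the earlier ones. Only 1 kept probe had a lower log2 ratio than this one at 1 h, and 4 did at 2 h.

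The same time course stood in the signal of the IL-1 channel. Its log2 signal was 9.56 and 9.50 at 1 h, 9.55 and 9.57 at 2 h, then 10.38 and 10.37 at 4 h. In the untreated channel the 6 arrays lay between 10.48 and 10.68, with a mean of 10.59 ± 0.073 (SD, n = 6 channels, which are not separate cultures). Thus on the brighter probe the levels at 1 and 2 h overlapped and could not be ranked. Both were below 4 h, and 4 h was below every untreated channel. On the dimmer Id4 probe the 4 h levels, 7.93 and 7.85, lay within the untreated range of 7.78 to 8.19.

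The dimmer Id4 probe also fell, by less with the processing used here. It gave -0.57 and -0.54 at 1 h, -0.60 and -0.76 at 2 h, then -0.20 and -0.14 at 4 h. Its Cy3 signal was only 1.46 to 2.70 times the median of the negative control spots. With the scanner's processed signals its 2 h ratio was -1.08. The brighter probe lay between -1.11 and -0.91 at 2 h over the alternatives, so the difference between the probes at 2 h depended on the processing. The mean response was -0.76 ± 0.15 (SE; limma adjusted p = 0.0150) for the brighter probe and -0.47 ± 0.089 (SE; limma adjusted p = 0.0146) for the dimmer one. Without the 2 h pair, the means were -0.67 and -0.36 and both calls were lost (limma adjusted p = 0.0914 and 0.0748). They were also lost with the scanner's processed signals, at larger means of -0.81 and -0.71 (limma adjusted p = 0.0907 and 0.0927).

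Id2 (chr12:25093799-25096092) was lowest at 2 h on both of its probes. The brighter probe gave -0.11 and -0.20 at 1 h, -0.51 and -0.53 at 2 h, then -0.06 and -0.11 at 4 h. The dimmer one gave 0.09 and 0.01, then -0.26 and -0.32, then 0.02 and 0.07. Both orientations at 2 h lay below all arrays of the other times on each probe, and the probes disagreed in sign at 1 and 4 h.

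The IL-1 channel of the brighter Id2 probe stood at 9.68 at 2 h, against 9.86 at 1 h and 9.94 at 4 h. Its untreated channel was at 10.15 and 10.25 on the 2 h arrays and between 10.00 and 10.04 on the other 4. The mean response was -0.26 ± 0.079 (SE; limma adjusted p = 0.0668) and -0.063 ± 0.067 (SE; limma adjusted p = 0.564), so neither probe passed. With the dye orientation as a replicate block over 6 arrays, the brighter probe passed (limma adjusted p = 0.0203). That fit counts both dye orientations of a sample as replicates, so its 6 arrays stand for 3 samples and its p-values are too small. It also passed without the 1 h pair at -0.30, without the 4 h pair at -0.34, and on the Cy3 orientation alone at -0.28 (limma adjusted p = 0.0386, 0.0414 and 0.0312).

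Id1 (chr2:152736251-152737410), the family member best known as a direct BMP target, changed sides between time points. Its brighter probe gave 0.40 and 0.46 at 1 h, -0.17 and -0.14 at 2 h, then 0.22 and 0.33 at 4 h. The dimmer probe followed it with pair means of 0.44 ± 0.083, -0.15 ± 0.023 and 0.28 ± 0.13. Both probes were above 0 on all 4 arrays of 1 and 4 h and below 0 on both arrays of 2 h. In both cases the mean response, 0.18 and 0.19, did not pass (limma adjusted p = 0.258 and 0.243).

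Both channels of Id1 differed between the 1 h and 2 h arrays. In the IL-1 channel the brighter probe stood at 10.80 at 1 h, 10.67 at 2 h and 10.64 at 4 h. In the untreated channel it stood at 10.84 and 10.81 on the 2 h arrays and between 10.33 and 10.41 on the other 4 arrays. The untreated signal of the 2 h pair was therefore 0.46 above the mean of the other pairs, while the IL-1 signal was 0.052 below, and the dimmer probe gave 0.37 above and 0.13 below. From 1 h to 2 h alone, the IL-1 signal fell by 0.13 and 0.13 on the brighter probe and by 0.21 and 0.24 on the dimmer one. Without the 2 h pair, both Id1 probes passed as higher, at 0.35 and 0.36 (limma adjusted p = 0.0220 and 0.0203). Whether the untreated RNA of the 2 h arrays was the same extract as on the others is not stated, and its part in the result was not tested.

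**Figure D2:**
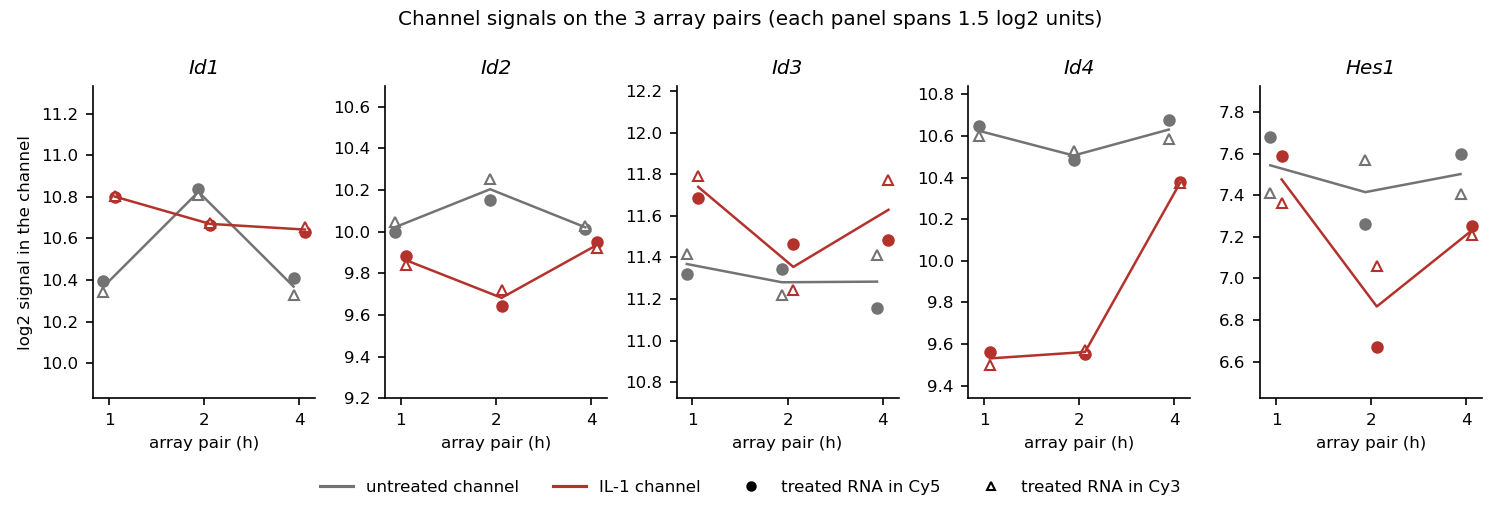
Log2 signal of the IL-1 channel (red) and of the untreated channel (grey) on the 3 array pairs, for the brighter probe of Id1, Id2, Id3, Id4 and Hes1, with circles for treated RNA in Cy5 and triangles for treated RNA in Cy3. Each panel spans 1.5 log2 units. The Id4 red line lies near 9.5 at 1 and 2 h and returns to 10.38, whereas for Id1 the grey line is higher at 2 h, at 10.84 and 10.81, and the red line goes from 10.80 to 10.67 and 10.64.

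Id3 (chr4:136143822-136145392) rose in the mean response. Its probe gave 0.37 and 0.37 at 1 h, 0.12 and 0.03 at 2 h, then 0.33 and 0.36 at 4 h. All 6 arrays were above 0, with the 2 h pair below the rest. The mean response was 0.26 ± 0.058 (SE; limma adjusted p = 0.0231), a change of under 1.3-fold at each time.

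The IL-1 channel of Id3 was 11.74 at 1 h, 11.35 at 2 h and 11.63 at 4 h, against 11.16 to 11.42 over the untreated channels, so that levels at 2 h overlapped with untreated. The call was lost without the 4 h pair, at 0.22 (limma adjusted p = 0.0793), and at 0.11 when arrays were centred on their median in place of loess (limma adjusted p = 0.235), a scaling in which the 2 h ratio turned to -0.10. With the processed signals the mean was 0.27 and the call was lost as well (limma adjusted p = 0.108).

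Hes1 (chr16:30065357-30067796), the general Notch target and an oscillating repressor in many cell types, was low at 2 h. Its probe gave -0.09 and -0.04 at 1 h, -0.59 and -0.51 at 2 h, then -0.35 and -0.19 at 4 h. Every array was below 0, and the pairs did not overlap with each other. The mean response was -0.30 ± 0.082 (SE; limma adjusted p = 0.0473). The call was kept under 8 of 15 alternatives. It was lost without the 2 h pair at -0.17, without the 4 h pair at -0.31, and on the Cy3 orientation alone at -0.25 (limma adjusted p = 0.134, 0.103 and 0.0528), and it was also lost with the processed signals or the deposited table (-0.52, limma adjusted p = 0.168), a normexp offset of 16 (-0.39, limma adjusted p = 0.0995) and 1 probe per gene (limma adjusted p = 0.0586).

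In the IL-1 channel Hes1 gave 7.59 and 7.36 at 1 h, 6.67 and 7.06 at 2 h, then 7.25 and 7.21 at 4 h. The untreated channels ranged from 7.26 to 7.68. The 2 h levels lay below that range and the 1 h levels within it. The 4 h levels were only just below it, at 7.25 and 7.21 against 7.26. Hes1 was dim, with a Cy5 signal of 1.87 to 3.63 times the median of the negative control spots and a Cy3 signal of 1.33 to 1.99 times.

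The Hey genes encode Notch-induced repressors that are best known from the heart and blood vessels. Hey2 (chr10:30832359-30842783) fell, with -0.20 and -0.11 at 1 h, -0.33 and -0.16 at 2 h, then -0.20 and -0.19 at 4 h. Its mean response was -0.20 ± 0.027 (SE; limma adjusted p = 0.00488). In the IL-1 channel all 6 arrays (6.16 to 6.28) were below all untreated channels (6.39 to 6.49). The signal was close to the background, however: on some arrays up to 15.9% of the 314 negative control spots were at least as bright in Cy3, and in the IL-1 channel it was well above background on 2 of 2 arrays at 1 h and on 1 of 2 at 2 h and at 4 h. With the processed signals, from which background is subtracted, the mean was -0.89 in place of -0.20, while the call was kept. The size of the fall thus depended strongly on the handling of background.

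Hey1 (chr3:8663359-8667038) had pair means of -0.037 ± 0.039 at 1 h, -0.053 ± 0.045 at 2 h and -0.21 ± 0.080 at 4 h. Only at 4 h were both orientations further from 0 than 0.1, at -0.29 and -0.13. Heyl (chr4:123233556-123249870) had pair means of 0.068 ± 0.019, -0.051 ± 0.094 and -0.17 ± 0.022 on its brighter probe. The Cy3 signal of this brighter probe was also low, at 1.60 to 1.75 times that median. The dimmer Heyl probe gave 0.018, -0.013 and -0.089, and 6.05% to 10.8% of negative control spots were at least as bright in Cy3. Neither gene passed the mean response test (limma adjusted p = 0.118 for Hey1, and 0.484 and 0.553 for Heyl).

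Change over time was tested as the slope per doubling of time. No member probe passed as rising, against 0.222% of all kept probes, or as falling, against 0.268%. At an unadjusted p under 0.05, 4 of 12 passed, against 10.4% of all kept probes. The steepest was that of the brighter Id4 probe, which gained 0.42 ± 0.065 per doubling (SE; limma adjusted p = 0.0581). With the replicate block, whose 6 arrays again stand for 3 samples, it passed (limma adjusted p = 0.0246), and calls over all probes rose from 68 to 164 upward and from 82 to 183 downward.

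The log2 ratios of Id1, Id2, Id3, Hes1 and the dimmer Id4 probe were lower at 2 h than at 1 and 4 h in both orientations. The brighter Id4 probe was not lowest at 2 h, where its ratio was 0.16 and 0.14 above that at 1 h. For each probe, the 2 h value was set against the mean of 1 h and 4 h within each orientation, a description chosen after the values were seen. The log2 ratio was at least 0.3 lower at 2 h in both orientations for 5 member probes (2 of Id1, 2 of Id2 and that of Hes1), and for 0.0719% of all kept probes. For Id3 the difference was -0.23 and -0.34, and for the Id4 probes it ranged from -0.21 to -0.42, which for the brighter one came with the higher ratio at 4 h.

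The channel signals on the 2 h arrays differed among the genes. The untreated signal was at least 0.3 higher at 2 h in both orientations for the 2 Id1 probes alone among the members, and for 2.38% of all kept probes. The IL-1 signal was at least 0.3 lower in both orientations for the brighter Id4 probe, whose signal was low at 1 h as well, and for 0.15% of all. Hes1 had an IL-1 channel 0.75 and 0.23 lower, with an untreated channel 0.38 lower and 0.16 higher. Hey1, Hey2 and Heyl had ratio differences between -0.13 and 0.14.

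**Figure D3:**
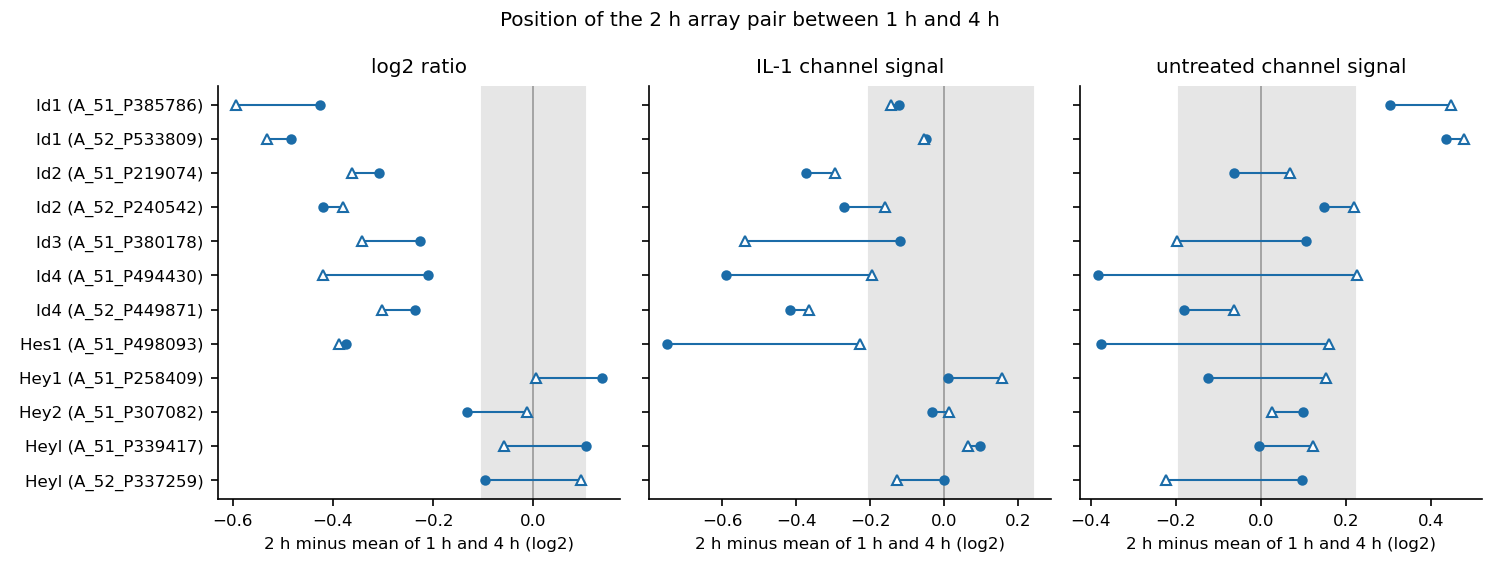
Value on the 2 h arrays minus the mean of 1 h and 4 h, in log2 units, for each member probe and orientation (circles, treated RNA in Cy5; triangles, treated RNA in Cy3) in the log2 ratio, the IL-1 channel and the untreated channel. Grey bands span the 5th to 95th percentile of all kept probes. All Id and Hes1 probes lie left of the band in the ratio panel, and only the Id1 probes have both points right of the band in the untreated panel.

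Among genes that act upstream of Hes and Hey, 29 of 33 listed Notch pathway genes were measured, and 6 rose and 2 fell in the mean response, against 10.5% and 11.3% of all kept probes. On this and the following lists the brightest kept probe stood for each gene, whereas the shares count every kept probe. Rbpj, which encodes the DNA-binding partner of cleaved Notch, rose by 0.46 ± 0.038 (SE; limma adjusted p = 0.00137). Adam17, a protease that can cleave Notch receptors, rose by 0.24 ± 0.027 (SE; limma adjusted p = 0.00287). Jag1, a Notch ligand, fell by 0.41 ± 0.066 (SE; limma adjusted p = 0.00860), with pair means of -0.19, -0.49 and -0.54. The median of the list was 0.0057, close to that of all probes, and no gene of it was 2-fold in both orientations.

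Of the BMP and SMAD genes that act upstream of the Id family, 36 of 37 were measured, and 7 rose and 7 fell, beside the same shares of 10.5% and 11.3% over all. Bambi, a decoy receptor that is itself a BMP target, fell by 0.41 ± 0.043 (SE; limma adjusted p = 0.00257). Grem1, a secreted BMP antagonist, rose by 0.31 ± 0.032 (SE; limma adjusted p = 0.00226). No gene of this list was 2-fold in both orientations, and its median mean response was 0.025.

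Of the bHLH partners and TLE corepressors, 18 of 23 were measured, with 2 higher (10.5% over all) and 5 lower (11.3% over all). Twist2, a mesenchymal bHLH factor, rose at every time, with pair means of 1.06, 1.37 and 1.36 and a mean response of 1.26 ± 0.061 (SE; limma adjusted p = 0.000404). Its relative Twist1 fell by 0.33 (limma adjusted p = 0.0259), from -0.11 at 1 h to -0.55 at 4 h. Tcf12, which encodes an E protein bound by Id proteins, fell by 0.16 (limma adjusted p = 0.00778), but the orientations differed. With treated RNA in Cy5 its log2 ratios were 0.035, -0.013 and 0.070 at 1, 2 and 4 h. With treated RNA in Cy3 they were -0.36, -0.36 and -0.31. A dimmer Tcf12 probe fell by 0.096 (limma adjusted p = 0.0285). The median of this list was -0.031. None of the 8 other Hes-related genes passed the mean response test, but Bhlhe40, a related repressor, was 2-fold higher in both orientations at 1 h (1.00 and 1.18) and stood at 0.080 at 2 h and -0.12 at 4 h.

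Genes with the most similar time course were sought for Id4, Id2 and Hes1, the members at least 0.5 in size in both orientations at some time, by Euclidean distance over 3 log2 ratios among 15356 genes. Nearest to Id2 were Arhgap24 (distance 0.097), Smad6 (0.11) and Dusp1 (0.15). Smad6, an inhibitory SMAD and BMP target, had pair means of -0.18, -0.44 and -0.15 and fell in the mean response (-0.26, limma adjusted p = 0.0215). Nearest to Hes1 were Tiam2 (0.13), Egr1 (0.14) and Dlx2 (0.16). Id4 had no gene within 0.2, and the closest were Irs1 (0.29), Snai2 (0.41) and Ephb3 (0.46). With 3 time points against one control these distances are a description.

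The cells and the direction were checked on other genes. Nfkbia, the inhibitor induced by NF-kB, stood at 3.02, 2.65 and 1.87 at 1, 2 and 4 h, Cxcl1 at 6.21, 5.49 and 4.84, and Il6 at 2.51, 2.96 and 2.73. Of 10 fibroblast markers, 9 exceeded 3 times the negative control median in untreated cells, with a list median of 112 times. No endothelial (5), mast cell (4), melanocyte (5) or Schwann cell (4) marker did. The exceptions on other lists were Krt5 and Krt10 (3.20 and 5.85 times), Lyz2 (46.1), Cspg4 (46.6), and Fabp4 and Pparg (4.85 and 5.93), and what part such cells had in the member values was not tested. Fewer cells of a type and less RNA per cell cannot be told apart in such bulk RNA.

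**Figure D4:**
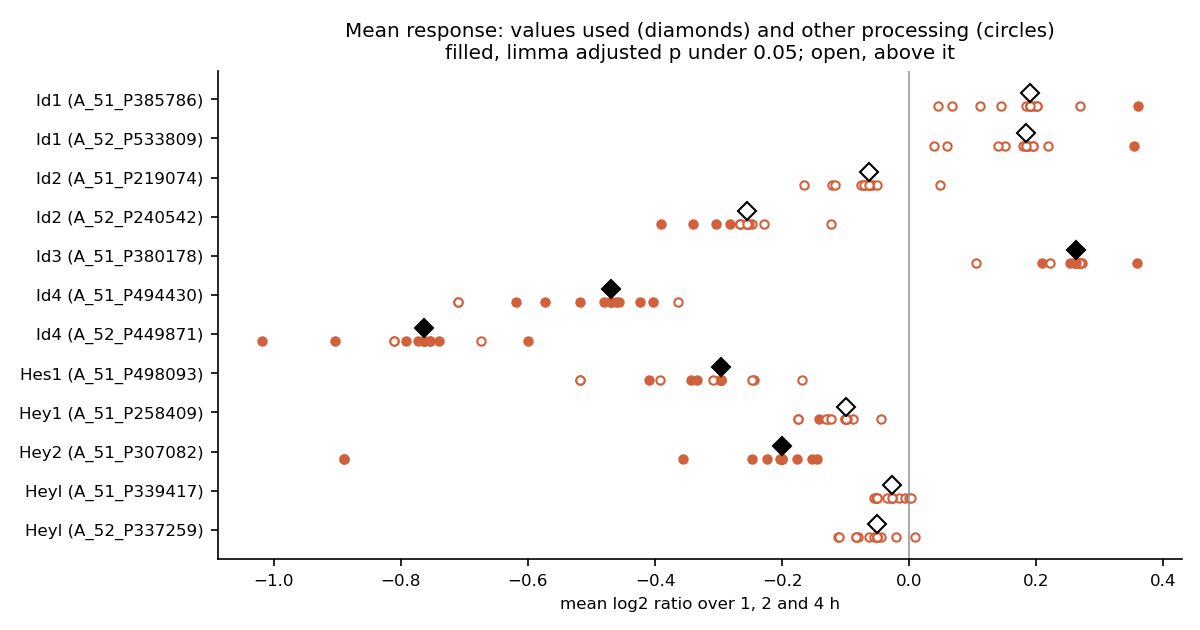
Mean log2 ratio over 1, 2 and 4 h for each member probe (horizontal axis) as reported (diamonds) and under other processing or with samples left out (circles). Filled symbols have a limma adjusted p under 0.05. Both Id4 probes stay at or below -0.36 throughout, while Hes1 and Id3 gain and lose the call.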

How the data were processed

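Total RNA of cultured fibroblasts was labelled in Cy3 and Cy5 and hybridised to Agilent arrays, per the labels' protocols. The deposited scanner files hold mean spot and local background intensity for each channel, and processed intensity columns that are background-subtracted and dye-normalized, per the file headers. A further table deposited by the authors gives log2 ratios. In 100% of its values, within 0.001, a column matched the processed treated-to-untreated ratio of its dye-swap partner, so the columns of a pair are exchanged. The direction used rests on the dyes in the labels.

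Background was corrected by normexp with an offset of 50, followed by loess within arrays (limma 3.58.1, R 4.3.3), with controls at weight 0. Flagged outlier spots were left out, and spots of a probe and both orientations of a time were averaged. Kept were probes that the scanner called well above background on all arrays of 1 condition or more, less 57 with a missing value. Mean response and slope were fitted with lmFit and eBayes, two-sided, over all kept probes. The untreated RNA is the control, so its own spread is left out. Channel levels were quantile-adjusted on average intensity. Array medians ranged from 118 to 130 in Cy5 and from 121 to 127 in Cy3, against 68.4 to 74.1 and 96.3 to 104 for negative controls. The number of arrays limits the precision.

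Arrays with the same replicate number deviated together from the mean of their time (r = 0.765 to 0.843 across probes), so the number, which marks dye orientation per the labels, was also fitted as a block. The members and gene lists were chosen with earlier results of these data known. Named were all members, the 3 genes nearest in time course to each member at 0.5 or more in both orientations, and on each list the 2-fold genes and the 3 largest that passed, besides 3 genes as a check of direction. One gene that this rule names is not reported here. The fits were tested on simulated data with errors drawn independently for each time point. That test does not cover errors that the time points share. The alternatives tried were other background corrections, normalizations, probe summaries, filters and variance settings, and left-out arrays or times.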

Additional observations from a re-analysis of the deposited data

Results flagged for a closer look

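Id1 was on one side of 0 in both orientations at 1 and 4 h and on the other side in both at 2 h. The first probe had log2 ratios of 0.44 at 1 h, -0.15 at 2 h and 0.28 at 4 h, and the second had 0.43, -0.15 and 0.27. The dimmer Id2 probe did the same with 0.052 at 1 h, -0.29 at 2 h and 0.045 at 4 h. The brighter Heyl probe was at 0.068 at 1 h and at -0.17 at 4 h, each in both orientations. With 1 sample per time point these differences between times were not tested.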

How the results depend on the processing

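With the scanner's processed signals or the deposited value table, 0 member probes were higher and 1 lower in the mean response (1032 higher and 933 lower over all probes), slopes fell to 0 each way, 2 members were at or below -1 at 2 h and 1 at or below -0.5 at 4 h. With a normexp offset of 16, 0 members were higher and 0 probes had a slope either way. With no background correction, 1 member had a rising slope (234 rising and 278 falling over all) and 1 was at or below -0.5 at 1 h and 1 at 2 h. Median centring, which moved probes with a log2 signal of 10 or more by -0.16, -0.18 and -0.14, gave 0 members higher, 1681 higher and 7445 lower over all, 2 members with a rising slope (279 rising, 212 falling over all), and 0 members past -1 or -0.5 in both orientations. Scaling between arrays left 2 members at or below -0.5 at 2 h, and no filter gave 1 rising slope. The replicate block gave 1 member and 164 probes rising and 183 falling in slope. Trended robust variance left 0 rising and 3 falling slopes. The brightest probe per gene gave 2 members lower and 1 at or below -0.5 at 1 h; averaging the probes of a gene gave 2 lower, 0 at or below -1 at 1 h, and 1 and 2 at or below -0.5 at 1 and 2 h.

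Leaving out 1 orientation or time gave 0 to 3 members higher (3 without 2 h, 0 without 4 h) and 1 to 5 lower (1 without 2 h). Over all probes it gave 927 to 6272 higher, 861 to 5899 lower, 8 to 17 rising and 13 to 30 falling slopes, and 0 to 1 members at or above 0.5 at 1 h. Where not shown by construction, the cause of these moves was not tested. Hey2 passed under all 15 alternatives for its mean, with a limma adjusted p of 0.000541 to 0.0472, and the Id4 means kept their sign under all of theirs. These alternatives are not separate checks, since the deposited table matches the processed signals and 1 probe per gene leaves the Hey2 ratios unchanged. With median centring the Hey2 orientations were on different sides of 0 at 1 h (-0.40 and 0.10) and 2 h (-0.50 and 0.015). Signal over background limits Hes1, Hey1, Hey2, both Heyl probes and the dimmer Id4 probe. The block changed no other member call of the mean response or the slope than those given with Id2 and Id4.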

Other observations

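Besides the probes named for the 8 genes, 4 kept probes had a description in the files that names one of them under another symbol. The probe named A330033J07Rik, described as Id4, had a mean response of -0.018, that named AK013239, described as Id2, -0.027, and that named AK048343, described as Hey2, -0.014, and none of these passed (limma adjusted p = 0.692, 0.678 and 0.715). Their signals were low, with mean log2 values of 6.51, 7.02 and 6.52. The brighter Id4 and Id2 probes stood at 10.2 and 9.96, and the Hey2 probe at 6.33. The probe named Clcn5, described as Hey1, had a mean of 0.14 (limma adjusted p = 0.00893), on the other side of 0 from the Hey1 probe. Which transcript these probes detect was not tested.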
